A study of Mus musculus with 2 samples.

Results

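An intron of Sfmbt2, a Polycomb-group gene on mouse chromosome 2, holds a dense run of miRNA genes of the Mir297, Mir466, Mir467 and Mir669 families, and their levels in the embryonic face are described here. The genes were taken by symbol and position: every gene in the count tables whose GENCODE symbol starts with one of these 4 names and which lies inside Sfmbt2 on its strand. The rule found 59 of the 1973 miRNA genes in the tables. They comprised 20 Mir466, 20 Mir669, 14 Mir467 and 5 Mir297 genes. The measurements were small RNA sequencing libraries of facial prominences from B6NCrl mouse embryos at embryonic day 10.5. The labels give 1 group of 2 biological replicates. Replicate 1 pooled tissue of 69 embryos and replicate 2 that of 51, male and female together and labelled healthy, and the labels name no genetic change or treatment. With no second stage, tissue or treatment, the comparisons are among the genes of the cluster and between the pools.

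Facial prominences are the swellings of neural crest mesenchyme, covered by ectoderm, that grow and fuse into the face and jaws. A miRNA is cut from a hairpin in a longer transcript, and its seed, the bases near the 5′ end, guides Argonaute to messenger RNAs that are then repressed. The Sfmbt2 cluster is found in rodents, and is best known from the placenta, where Sfmbt2 is expressed from the paternal allele. Its hairpins arose by repeated duplication, so that many differ from each other by few bases, and reads from such copies are hard to assign to 1 gene.

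The cluster sits in a single large intron. Sfmbt2 (ENSMUSG00000061186) runs from 10370510 to 10595253 on the plus strand of chromosome 2 (mm10). All 59 genes lay between 10466663 and 10518279, a stretch of 51617 bases. In the 2 annotated Sfmbt2 transcripts with 23 exons this is intron 10 or intron 11, with the same borders (10461473 to 10523944). The first hairpin began 5190 bases after the start of the intron and the last ended 5665 bases before its end. No gene of the cluster overlapped an exon of these transcripts. The array was regular. From one Mir467 gene to the next, 11 of 13 steps measured between 2413 and 2470 bases, and the other two were 4880 bases (Mir467a-9 to Mir467a-10) and 1909 bases (Mir467e to Mir467d).

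Mature sequences are given here for genes of the same family names outside Sfmbt2, since none were at hand for the genes of the cluster. Their seeds are not to be read as those of the cluster's miRNAs. The tables held 10 genes with these family names elsewhere in the genome, and RefSeq (GRCm38.p6, the same build as mm10) gave mature sequences for 8 of them. They are shown because these genes carry the same family names and none had a read. The seed, bases 2 to 8, is in capitals.

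mmu-miR-466i-3p (chr13:17747552-17747573, plus strand): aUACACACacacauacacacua

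mmu-miR-466j (chr10:60960802-60960824, plus strand): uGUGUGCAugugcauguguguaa

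mmu-miR-466k (chr3:85467396-85467418, plus strand): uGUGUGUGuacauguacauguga

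mmu-miR-466q (chr3:28419988-28420007, plus strand): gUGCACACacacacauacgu

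mmu-miR-467f (chr11:69635419-69635439, minus strand): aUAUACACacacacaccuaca

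mmu-miR-467g (chr5:34732872-34732892, minus strand): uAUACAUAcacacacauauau

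mmu-miR-467h (chr9:115381898-115381919, plus strand): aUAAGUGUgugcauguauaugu

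mmu-miR-669n (chr3:115979905-115979924, plus strand): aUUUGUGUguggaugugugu

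Each of the 8 had a seed that none of the other printed sequences shared. All 10 genes outside the locus, Mir297-1 and Mir466f-4 included, had 0 counts in both libraries. By counting error alone, no count still allows up to 3 reads placed at a gene, or 1.05 CPM (counts per 1000000 gene counts) in the first library and 0.853 CPM in the second. Reads that fit several places are not in these counts, so this does not limit the level of the miRNAs themselves. Every read counted for a gene with one of the 4 family names therefore lay in the Sfmbt2 intron.

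Levels are given in CPM, from the count on the gene's strand and the total of such counts in the library (2853511 in replicate 1 and 3517226 in replicate 2). A mean is given with its SD over the 2 libraries. A gene's count sums both arms of its hairpin. A small RNA read spans a whole mature miRNA, so counts were not divided by hairpin length. Capture of small RNA differs between sequences, and a difference in level between genes is a difference in reads. Intervals are exact 95% Clopper-Pearson intervals and cover counting error only, since reads copied by PCR are not separate molecules.

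By reads placed at 1 gene, the cluster was present in both pools at a modest level that came from a few genes. Its summed level was 4612 CPM in replicate 1 and 5489 CPM in replicate 2, a mean of 5050 ± 621 CPM (SD, n = 2), or 0.505% of all counts. The 3 highest genes, Mir467c, Mir467d and Mir467e, held 79.7% of the cluster's reads in replicate 1 and 82.8% in replicate 2. The 10 highest held 99.7% in each library. At least 1 count in either library was found at 28 of the 59 genes, and 31 had none, while 37.6% of all genes in the tables had a count. At least 10 counts in each library, here called detected, were reached by 10 of 59 (16.9%), beside 19.1% of all genes. The share of the cluster that was detected was thus near that of miRNA genes in general.

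**Figure D1:**
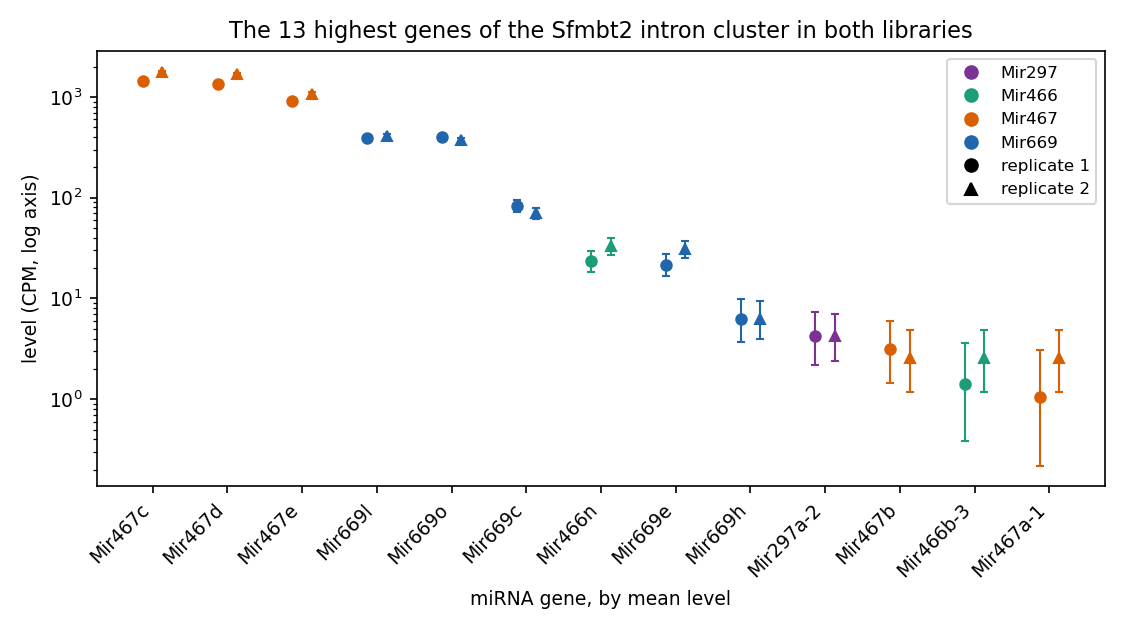
Level of the 13 highest genes of the cluster in each library, in CPM on a log axis, coloured by family. Circles are replicate 1, triangles replicate 2, and bars are exact 95% intervals of the count. The 3 Mir467 genes lie above all Mir669 genes in both libraries, and Mir467a-1 at the right has 1.05 and 2.56 CPM.

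The Mir467 family led the cluster. Its 14 genes summed to 4115 ± 618 CPM, and nearly all of that came from 3 of its genes. Mir467c (ENSMUSG00000077049.2, 10473931 to 10474027) had 4066 and 6276 counts, or 1425 and 1784 CPM. Mir467d (ENSMUSG00000077021.2, 10507630 to 10507714) had 3821 and 5922 counts, or 1339 and 1684 CPM. Mir467e (ENSMUSG00000076948.2, 10505721 to 10505807) had 2596 and 3795 counts, or 909.8 and 1079 CPM. Among all 1973 genes these ranked 84, 88 and 105 by mean level. Mir467c was 1.06 times Mir467d in each library, and neither interval (1.02 to 1.11 and 1.02 to 1.10) included 1. That gap was smaller than the difference of either gene between the libraries. Both stood clearly above Mir467e: Mir467d was 1.47 times Mir467e in replicate 1 and 1.56 times in replicate 2.

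The counts of the other Mir467 genes were close to 0. Mir467b had 9 counts in each library (3.15 and 2.56 CPM). Mir467a-1 had 3 and 9 counts (1.05 and 2.56 CPM). The remaining 9, Mir467a-2 to Mir467a-10, had 0 counts in both libraries. Each of these has an identical hairpin at another gene, so its count of 0 is no measure of its level.

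The Mir669 family came next, with 896 ± 7.08 CPM over 20 genes. Of these, 10 had a count and 5 were detected. Mir669l (ENSMUSG00000076959.1, 10468971 to 10469068) had 1107 and 1439 counts, or 387.9 and 409 CPM. Mir669o (ENSMUSG00000077086.1, 10514300 to 10514395) had 1140 and 1317 counts, or 399.5 and 374 CPM. Their order changed between the libraries. Mir669l was 0.971 times Mir669o in replicate 1 (0.893 to 1.06) and 1.09 times in replicate 2 (1.01 to 1.18), so the pair did not differ beyond its spread. Both were below Mir467e, which was 2.35 times Mir669l in replicate 1 and 2.64 times in replicate 2.

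Mir669c (ENSMUSG00000076118.1, 10509296 to 10509404) followed with 236 and 246 counts, 82.7 and 69.9 CPM. Mir669o was 4.83 times as high in replicate 1 and 5.35 times in replicate 2. Mir669e (ENSMUSG00000080653.1, 10467495 to 10467613) had 62 and 108 counts, 21.7 and 30.7 CPM. Mir669h (ENSMUSG00000080594.1, 10518155 to 10518279) had 18 and 22 counts, 6.31 and 6.25 CPM. The counted levels of the detected genes of this family thus ran over a wide range in both libraries. Of the 15 genes that were not detected, the highest was Mir669f with 6 and 2 counts.

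The Mir466 and Mir297 families gave few reads that could be counted. Some Mir466 genes have an identical hairpin at another gene, and a count of 0 there is no measure of level. The 20 Mir466 genes summed to 34.0 ± 8.97 CPM, and 10 of them had a count. Mir466n (ENSMUSG00000077991.1, 10513741 to 10513834) was the sole detected gene of its family, with 67 and 116 counts, or 23.5 and 33.0 CPM. It was not separated from Mir669e, at 1.08 times in replicate 1 (0.754 to 1.55) and 1.07 times in replicate 2 (0.819 to 1.41). Mir466b-3 had 4 and 9 counts. The 5 Mir297 genes summed to 4.98 ± 0.598 CPM, nearly all of it from Mir297a-2 (ENSMUSG00000076983.2, 10472254 to 10472343) with 12 and 15 counts, 4.21 and 4.26 CPM. Mir297a-2 lay just inside the limit for detection, and Mir467b, with 9 and 9 counts, just outside it. Mir669h and Mir297a-2 did not differ beyond counting error, at 1.5 times in replicate 1 (0.684 to 3.41) and 1.47 times in replicate 2 (0.727 to 3.04).

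Counted reads lay mostly in the first 10 kb of the array and from 30 to 50 kb, and hardly at all in between. Measured from the start of the first hairpin, the genes in the first 10 kb held 1843 CPM in replicate 1 and 2233 CPM in replicate 2, with Mir467c and Mir669l among them. The genes from 30 to 40 kb held 911 and 1082 CPM, nearly all Mir467e. Those from 40 to 50 kb, with Mir467d and Mir669o, held 1848 and 2165 CPM. The 9 genes from 20 to 30 kb had 0 counts. Between Mir467b, at 14.6 kb, and Mir466b-3, at 36.9 kb, all 16 genes in a row had none, from Mir467a-3 to Mir467a-10. Of these 16, 15 have an identical hairpin at another gene, and reads that fit several places are not counted. The gap is thus one of counted reads and does not measure where miRNAs are made.

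**Figure D2:**
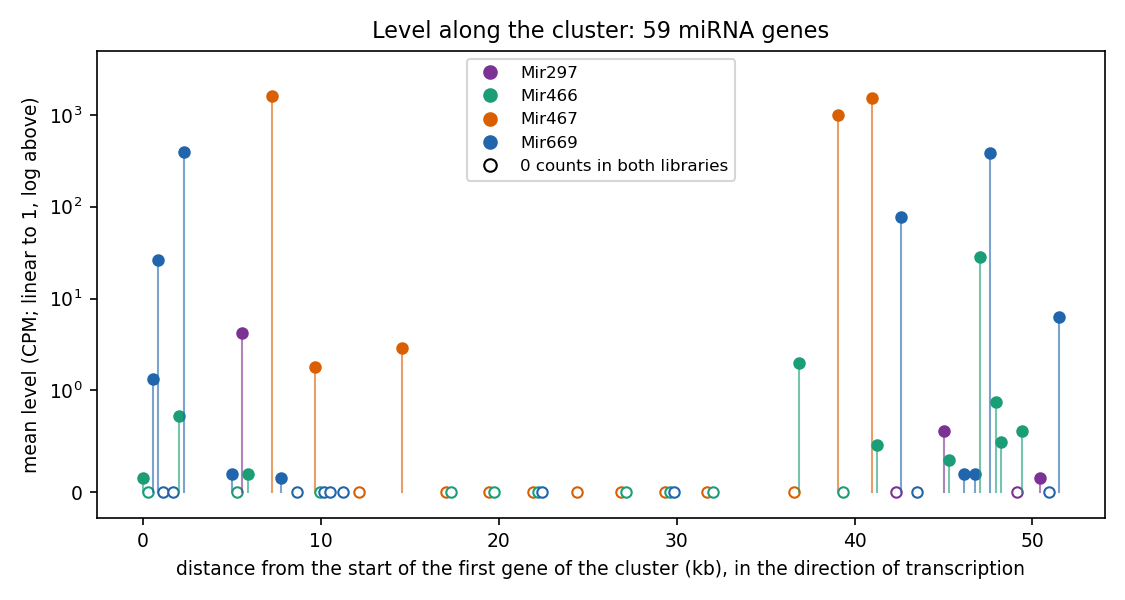
Mean level of each of the 59 genes against its distance from the start of the first gene in kb, in the direction of transcription, with colours for families and open circles for genes at 0 in both libraries. The CPM axis is linear to 1 and logarithmic above. The high genes stand in the first 10 kb and between 30 and 50 kb. The 16 genes between 14.6 and 36.9 kb are all at 0, and 15 of them have an identical hairpin at another gene.

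Most genes at 0 had no 20-base stretch of hairpin of their own. In the GENCODE M21 hairpins, each hairpin was read in windows of 20 bases, and a window was called its own if no other of the 2202 annotated miRNA hairpins held it on either strand. Windows covered the whole hairpin, its loop included, so an own window need not lie in a mature miRNA. Whether the reads of a gene with own windows could be placed at 1 gene was not tested. Of the 59 genes, 20 had no window of their own, and 19 of those 20 had 0 counts. The exception was Mir467a-1, and the sources do not say how its 12 reads were placed. Of the 39 genes with at least 1 own window, 12 had 0 counts. An identical hairpin elsewhere was annotated for 17 genes of the cluster, and all 17 were at 0. In the run of 16 genes at 0 in the middle of the array, 15 had an identical copy. Reads that mapped to several places (27.6% of all reads in replicate 1 and 25.9% in replicate 2) stand on a line of their own in the tables, apart from the genes. A count of 0 at a gene with an identical copy is therefore no measure of its level, and the cluster's sum is a sum of the reads that were placed at 1 gene. How many of the multimapping reads belong to the cluster was not tested.

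Among the detected genes the share of own windows ranged from 32.4% (Mir297a-2) to 95% (Mir669e), with a median of 54.7%. Mir467c had 60.3%, Mir467e 57.4% and Mir467d 37.9%. The median was 34.6% among the 18 genes with fewer counts and 0% among the 31 genes at 0. Of the 13 genes with at least 50% own windows, 8 were detected, 3 had fewer counts and 2 had none. The 3 with fewer counts were Mir466g, which shared no 20-base window with any other hairpin (1 and 5 counts), Mir466h at 93.5% (2 and 1 counts) and Mir466l at 85.3% (1 and 3 counts). The 2 with none were Mir669b at 87.2% and Mir669i at 73.1%. Copies outside annotated hairpins were not searched. The G and C content of the 59 hairpins had a median of 37.2% (31.5% to 43.4%), beside a median of 51% over all matched miRNA hairpins. Hairpin lengths ran from 73 to 127 bases with a median of 90, the same median as over all miRNA genes.

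**Figure D3:**
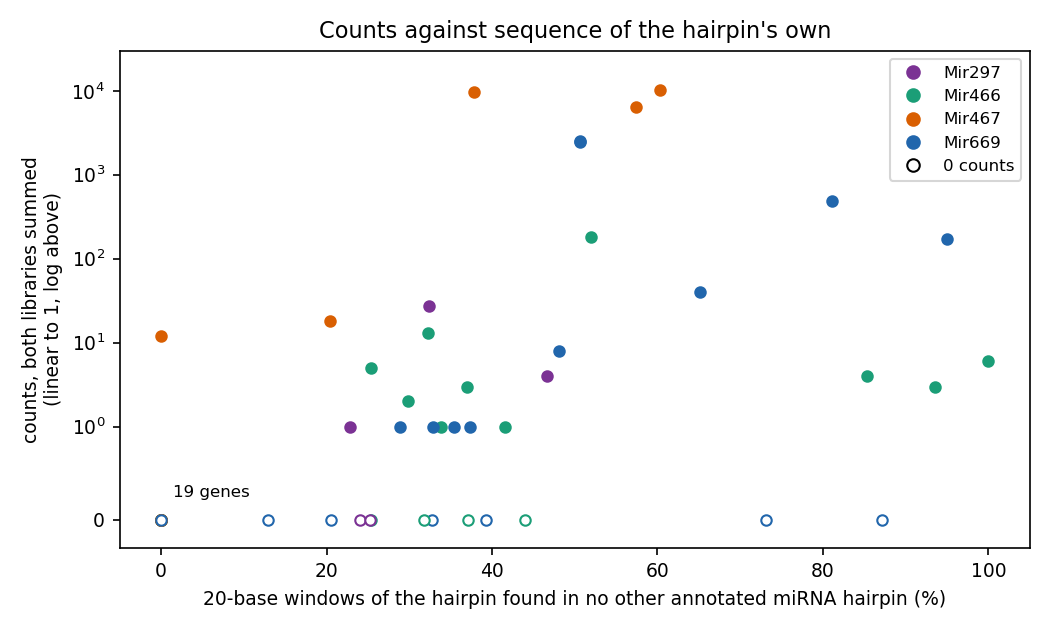
Counts of each of the 59 genes, summed over both libraries (linear to 1, logarithmic above), against the percentage of 20-base windows of its hairpin that no other annotated miRNA hairpin holds. Own windows may lie outside the mature miRNA. Open circles are genes at 0, and 19 of them coincide at 0% own windows. The 5 highest genes lie between 37.9% and 60.3%.

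Other reads at the locus were few. GENCODE lists a further 48 miRNA genes inside Sfmbt2 on its strand that have other names. They had 5 counts in replicate 1 and 10 in replicate 2, over 6 of the 48 genes, and 22 of them had no own window. On the strand opposite to Sfmbt2, none of the 59 genes had a read in either library. The families' reads were thus all in the direction of Sfmbt2 transcription. All genes together had 71183 and 87975 counts on their opposite strand, but the lack of such reads was not particular to this cluster. Of the clusters compared below, Mir17-92 had 0 and 0 opposite-strand counts, and distal Dlk1-Dio3 had 1 and 0.

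The cluster was compared with the distal Dlk1-Dio3 cluster on chromosome 12 (109709060 to 109747960), another large imprinted array of miRNA genes, with 34 genes. That cluster summed to 52037 ± 672 CPM, which was 11.2 times the Sfmbt2 cluster in replicate 1 and 9.57 times in replicate 2. It had 30 of 34 genes detected, against 10 of 59 here. Its 3 highest genes, Mir487b, Mir411 and Mir369, held 50.4% and 50.6% of its reads, a lower share than the 79.7% and 82.8% held by Mir467c, Mir467d and Mir467e. The Mir17-92 cluster on chromosome 14, a short array that is highly expressed in growing embryonic cells, had all 6 genes detected at a sum of 166462 ± 635 CPM. Its 3 highest genes, Mir17, Mir20a and Mir18, held 94.3% and 93.7% of its reads, a higher share than in the Sfmbt2 cluster, though out of 6 genes only. In both comparisons the values of the 2 libraries did not overlap, and no test was made, since 2 libraries cannot give an exact p under 0.05. The sums and detected shares hold only reads placed at 1 gene. In the Sfmbt2 cluster 20 of 59 genes had no 20-base window of their own, and the same count is not given for the other clusters. How many reads each cluster lost to multimapping was not tested.

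Between the pools, the 3 leading Mir467 genes were higher in replicate 2, and no Mir669 gene passed the test. For the 449 genes with 10 or more counts over both libraries, a two-sided exact binomial test set the split of a gene's reads against the split of all gene counts, and p-values were adjusted by the Benjamini-Hochberg method over the 449. The test compares these 2 libraries beyond counting error and not conditions. Of the 13 genes of the cluster that could be tested, 3 passed (23.1%), all higher in replicate 2. Over all 449 genes 40.3% passed, 20% higher and 20.3% lower in replicate 2. These shares depend on depth, since on few counts only a large difference can pass. Among the 13 were Mir467a-1 (3 and 9 counts), Mir466b-3 (4 and 9) and Mir467b (9 and 9). The smaller share in the cluster is therefore not read as a trait of it. The other 46 genes of the cluster had too few counts to be tested.

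Mir467c was 1.25 times as high in replicate 2 (1.20 to 1.30), with an adjusted exact binomial p of 2.08e-28. For Mir467d the ratio was 1.26 (1.21 to 1.31) with an adjusted exact binomial p of 8.54e-28. Mir467e had a ratio of 1.19 (1.13 to 1.25), adjusted exact binomial p = 9.71e-11. The 3 genes moved by nearly the same factor, and none reached 1.5-fold. On the log2 scale, with 0.5 CPM added, the ratios were 0.32, 0.33 and 0.25. Each was smaller than the SD of the log2 ratio over the 320 genes that averaged 10 CPM or more, 0.39, of which 89.7% lay within 1.5-fold.

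The tested Mir669 genes did not pass. Mir669l had a ratio of 1.05 (0.974 to 1.14), Mir669o 0.937 (0.865 to 1.02) and Mir669c 0.846 (0.704 to 1.02), with adjusted exact binomial p of 0.345, 0.226 and 0.149. Summed over the family, Mir669 had a ratio of 0.989 (0.938 to 1.04), and summed over its own genes Mir467 had 1.24 (1.21 to 1.27). The counting intervals of these sums did not overlap, and the difference between the families was not tested. Mir466n at 1.40 (1.03 to 1.93) and Mir669e at 1.41 (1.02 to 1.96) had the largest ratios among the detected genes, but on few counts, and did not pass (adjusted exact binomial p = 0.0632 and 0.0726). The intervals of Mir669h (0.508 to 1.96) and Mir297a-2 (0.443 to 2.37) were wide, and no difference was detectable at this depth.

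**Figure D4:**
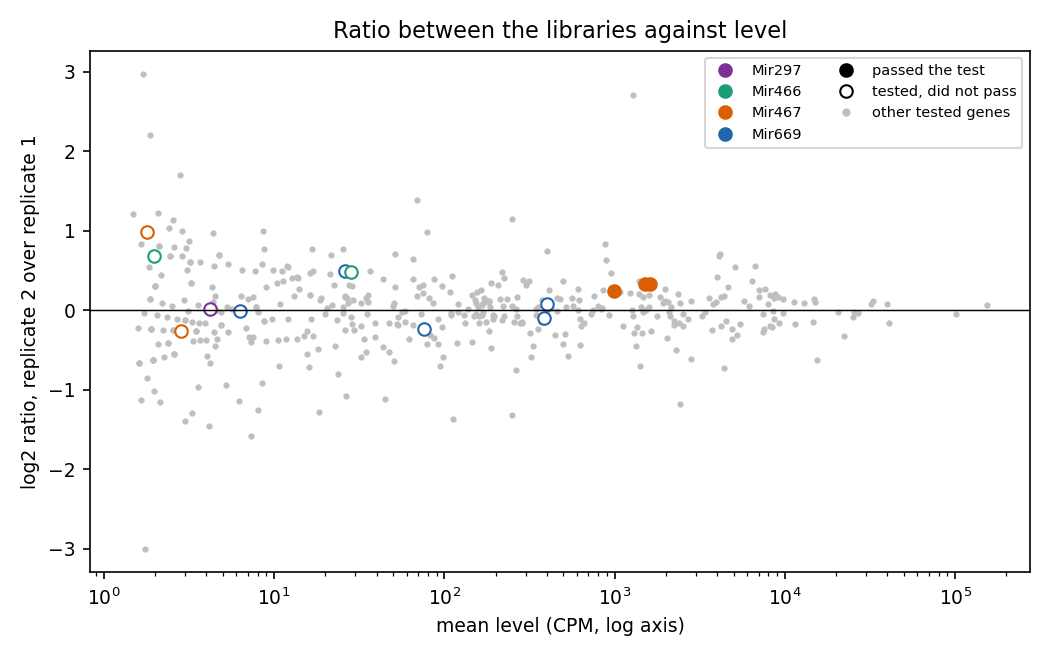
Log2 ratio of replicate 2 over replicate 1 (0.5 CPM added) against mean level in CPM on a log axis, for the 449 tested genes. Coloured circles are the 13 tested genes of the cluster, filled where the exact binomial test passed, and grey points are the other genes. The 3 filled Mir467 circles lie at 0.25 to 0.33, within the grey cloud.

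The whole cluster was 1.19 times as high in replicate 2 (1.16 to 1.22), a log2 ratio of 0.25. That difference came from the 3 highest genes: without Mir467c, Mir467d and Mir467e the ratio was 1.00 (0.955 to 1.06). Over the 10 detected genes the median log2 ratio was 0.16, with 7 of 10 higher in replicate 2, beside a median of 0.01 over all 376 detected genes. That median was 0.08 with a minimum of 5 counts and 0.29 with a minimum of 20.

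Markers of blood and of early embryonic or trophoblast cells, which a dissection could carry along, were measured in the same libraries. The erythroid genes Mir451a, Mir144 and Mir486 (all 3 matched members detected) summed to 419.8 CPM in replicate 1 and to 205 CPM in replicate 2. Of the 3, Mir451a alone passed the exact binomial test, with 358.5 and 143 CPM. Mir144 had 41.4 and 37.0 CPM, and Mir486, in the other direction, 19.98 and 25.0 CPM. The Mir290 genes, of which 6 of 7 matched members were detected, summed to 332.6 and 496 CPM, and Mir290a was near 0 with 3 and 4 counts. Mir675, made from the imprinted H19 transcript of placenta and embryo, had 163 and 175 CPM. The Mir290 sum was higher in the same pool as the cluster, by 1.49 times (1.38 to 1.62). Of the 6 Mir290 genes tested, 4 passed the exact binomial test as higher in replicate 2, beside 20% of all tested genes. The ratio of replicate 2 to replicate 1 was 1.07 (0.946 to 1.21) for Mir675. For the erythroid sum it was 0.488 (0.445 to 0.536), the other direction. The part of these cells in the cluster's level was not tested, and the labelled tissue was not checked against markers of its own. In pooled tissue, fewer cells of a type and less RNA per cell cannot be told apart.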

How the data were processed

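The authors deposited 1 table of raw counts per library, made on the mm10 build with the M4 release of GENCODE, as the text files deposited beside them state. The aligner is not given in the sources used here. Each table has counts for either strand, the gene's strand (used here) and the opposite strand. The 4 summary lines that name no gene were left out of the totals. Libraries held 6828248 and 8643947 reads, of which 41.8% and 40.7% were counted for genes.

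Symbols, positions and hairpins came from GENCODE M21, matched by identifier without its version. Of 1973 identifiers, 1894 matched, and no unmatched one exceeded 3 counts. CPM, intervals and exact binomial tests used Python 3.11.15 with scipy 1.17.1, and TMM factors came from edgeR 4.0.16. The binomial test was tried on simulated counts that varied by counting error alone. That check does not cover other variation between libraries. The Dlk1-Dio3 and Mir17-92 clusters were runs of miRNA genes at most 10 kb apart on 1 strand. Alternatives changed the strand, the scaling, the pseudocount, the count minimum and the genes included.

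Members and lists were chosen with earlier results of these data known. Named were every detected member, any with 10 counts in 1 library alone (there was none), and the 3 highest of the rest. The other members named with a value (Mir669f, Mir466g, Mir466h, Mir466l, Mir669b, Mir669i) fall outside that rule, and their values were known when they were picked. Mir292a and Mir486a were matched as Mir292 and Mir486, and Mir290b, Mir292b and Mir486b had no matching symbol.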

Additional observations from a re-analysis of the deposited data

How the results depend on the processing

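Of 223 alternatives, 202 left the value on the same side of its test, or within its spread between libraries or 1.5 times its count. Some of these could not do otherwise. Leaving out 1 of 2 libraries always keeps a mean level or share within its SD, and the sum of 0 outside the locus stays 0 under any scaling. The 202 therefore overstates how far the results were put to the test. Scaled to all reads, the cluster summed to 2080 counts per 1000000 reads with a log2 ratio of 0.21, and with the 10 highest genes of the tables left out of the denominator it summed to 10118 CPM. Requiring a 1.5-fold difference beside the exact binomial test left 0 genes passing, where the test alone passed 3 and 5 had an unadjusted p under 0.05. The count was 3 under the other 7 alternatives. Without the 3 highest members the log2 ratio of the sum was 0.0068. Leaving out 1 library gave 4612 to 5489 CPM, 24 to 25 genes with a count, 10 detected genes and 79.7% to 82.8% in the 3 highest. The log2 ratio of Mir669h turned to 0.0067 with TMM factors, and that of Mir297a-2 to -0.014 when scaled to all reads, both from values near 0 that had not passed. Windows of 18 and 22 bases, chosen after seeing the data, each gave 20 genes without an own window. Depth limits Mir669h and the genes below it, whose ratios have intervals that span more than 2-fold. No paired analysis was possible because the study has 1 group.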
